A study of Homo sapiens with 6 samples.

Results

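The transcript levels of 10 autophagy genes were followed in human pancreatic ductal adenocarcinoma (PDAC) cells after blockade of retinoic acid receptor γ (RARγ). The genes were taken by symbol as a fixed list: the cargo receptors SQSTM1 and NBR1, the ATG8 family genes MAP1LC3A, MAP1LC3B, GABARAP, GABARAPL1 and GABARAPL2, and the ULK1, WIPI1 and BECN1 genes of the membrane-forming machinery. They are 10 of the 53826 entries of each library and were chosen with earlier results of these data known. RNA-seq had been performed on PK-1 and Panc-1, established lines of PDAC cells, each as a control, after RARγi-1 (the RARγ antagonist LY2955303) and after RARγi-2 (the RARγ antagonist MM11253, of a different structure), both for 24 h. There was 1 library for each of these 6 conditions and no replicate, so no p-value is given. The titles name RARγi-2 for the libraries called so here, while their treatment label reads RARγi-1; the titles were followed. The doses used for RNA-seq and the vehicle of the controls are not given in the sources used here, so the values of both inhibitors stand side by side and the compounds are not compared with each other. All 4 comparisons set a treated library against the control of its own line, and both comparisons within a line share that control.

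Autophagy encloses proteins and organelles in a membrane that then fuses with the lysosome. The ULK1 kinase starts the process, the lipid kinase complex that contains Beclin 1 (BECN1) marks the growing membrane, and WIPI proteins bind that lipid mark. The ATG8 proteins, which comprise the LC3 and GABARAP subfamilies, are attached to the membrane, where they hold cargo receptors. The receptors p62 (SQSTM1) and NBR1 bind ubiquitinated cargo and ATG8 proteins together and are themselves degraded with the cargo, so their RNA does not stand for their protein, and RNA does not measure how much material is degraded.

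RefSeq start sites are shown first for the genes on which the results turn. A stretch of 100 bases just before the start is given for the 5 genes past 2-fold in PK-1 cells and, for contrast, for GABARAP and GABARAPL2, which were not past 2-fold in any comparison. The sequences read 5′ to 3′ on the strand of the gene, from build GRCh38.p14, and capitals mark a match to 1 of 4 motifs described after them.
SQSTM1 (p62; chr5:179820805-179820904, plus strand, before the most downstream of its 3 listed starts): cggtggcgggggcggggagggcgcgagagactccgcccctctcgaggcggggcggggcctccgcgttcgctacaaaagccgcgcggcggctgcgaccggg
MAP1LC3B (LC3B; chr16:87392236-87392335, plus strand): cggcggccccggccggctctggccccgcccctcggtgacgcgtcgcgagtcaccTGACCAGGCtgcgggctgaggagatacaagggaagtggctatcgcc
GABARAPL1 (chr12:10212777-10212876, plus strand): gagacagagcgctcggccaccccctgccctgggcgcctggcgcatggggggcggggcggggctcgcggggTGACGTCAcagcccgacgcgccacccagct
WIPI1 (chr17:68457497-68457596, minus strand): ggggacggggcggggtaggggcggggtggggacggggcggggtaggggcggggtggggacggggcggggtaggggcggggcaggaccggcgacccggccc
ULK1 (chr12:131894522-131894621, plus strand): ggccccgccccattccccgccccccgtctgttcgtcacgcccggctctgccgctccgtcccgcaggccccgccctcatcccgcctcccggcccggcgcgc
GABARAP (chr17:7242450-7242549, minus strand): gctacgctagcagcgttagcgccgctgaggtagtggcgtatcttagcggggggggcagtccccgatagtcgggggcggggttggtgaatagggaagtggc
GABARAPL2 (chr16:75566279-75566378, plus strand): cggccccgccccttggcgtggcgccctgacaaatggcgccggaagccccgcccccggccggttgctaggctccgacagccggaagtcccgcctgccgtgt

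The 4 motifs were searched on both strands in windows from 250 bases before to 50 bases after each start. They were the E-box CACGTG, which TFEB and TFE3 bind, the antioxidant response element TGACNNNGC, which NRF2 binds, the composite site TGATGNAAT of CHOP and ATF4, and the cAMP response element TGACGTCA. None of these patterns contains another, although TGACNNNGC and TGACGTCA begin with the same 4 letters. Of the 12 windows of the 9 members with an entry (MAP1LC3A had none), 2 held a match. MAP1LC3B held the antioxidant pattern 46 to 38 bases before its start, a pattern present in 13.3% of all 35116 windows. GABARAPL1 held the cAMP response element 30 to 23 bases before its start, which 1.85% of all windows contain. The E-box occurred in 7.26% of all windows and the CHOP and ATF4 pattern in 0.991%, and neither was found in the windows of the members. These matches describe letters in a short window and not binding. The share of G and C in the printed stretches was 73% for MAP1LC3B, 79% for GABARAPL1, 80% for SQSTM1, 82% for ULK1 and 86% for WIPI1, beside 65% for GABARAP and 76% for GABARAPL2.

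SQSTM1, MAP1LC3B, GABARAPL1 and WIPI1 were more than 2-fold higher than the control in all 4 comparisons. ULK1 was past 2-fold in PK-1 cells, and MAP1LC3A reached it only in Panc-1 cells with RARγi-2. NBR1, GABARAP, GABARAPL2 and BECN1 did not pass 2-fold in any comparison, NBR1 by a narrow margin in PK-1 cells with RARγi-1. Levels are given in TPM, a unit scaled for transcript length and library total, and were deposited with every value under 1 TPM raised to 1 TPM, called the floor here. Changes are log2 fold changes of (TPM + 1), a scale that understates changes of low genes. In the plot of levels by library, the 4 genes past 2-fold throughout have both treated libraries well above the control in each line.

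**Figure D1:**
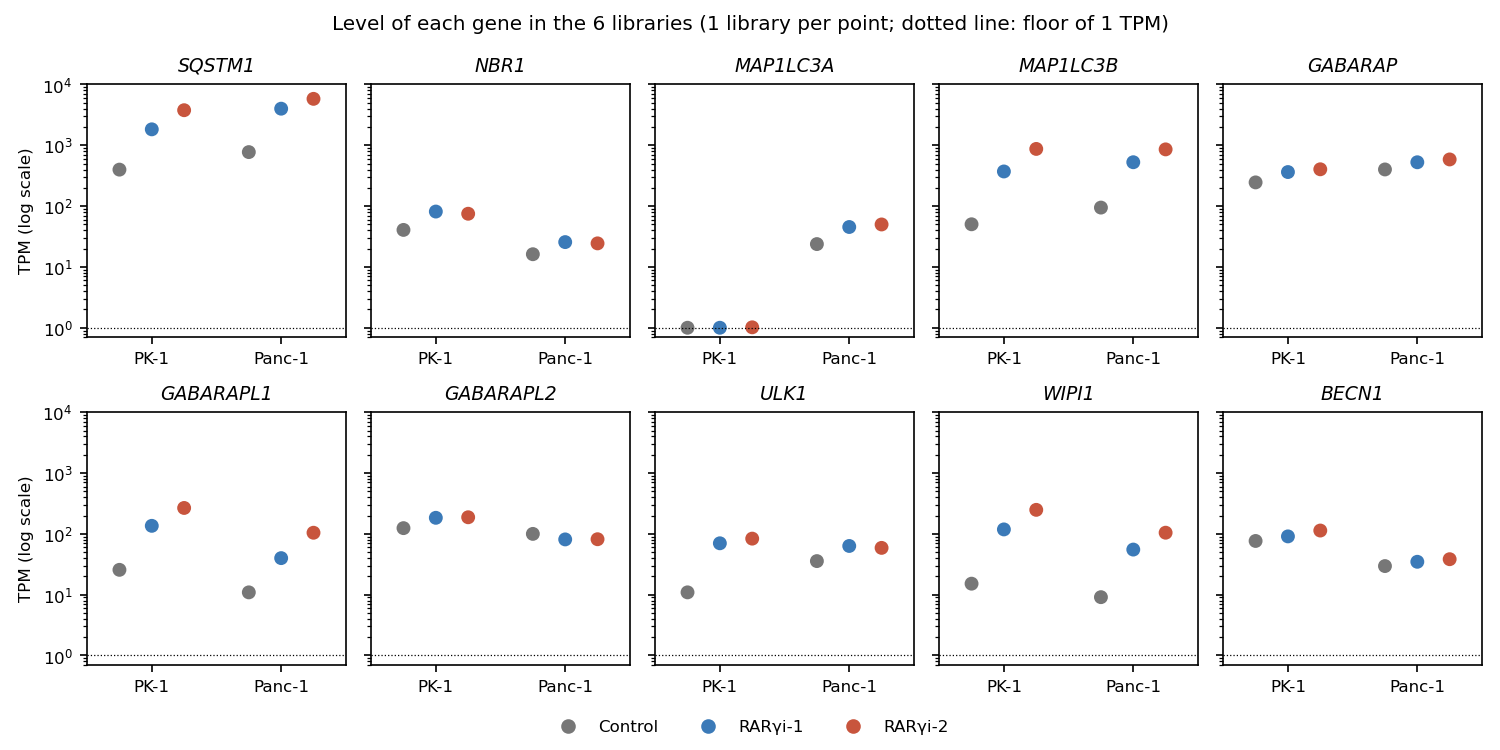
TPM (log axis) of the 10 genes in the 6 libraries, 1 point per library, grouped by cell line and coloured by condition, with the floor of 1 TPM as a dotted line. SQSTM1 lies between 398 and 5809 TPM, whereas MAP1LC3A lies at or just above the floor in PK-1 cells and between 23.8 and 49.9 TPM in Panc-1 cells.

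SQSTM1, on chromosome 5 (179806393 to 179838078, plus strand, GRCh38.p14), encodes p62, which also holds signalling proteins and binds KEAP1, the inhibitor of NRF2. In PK-1 cells, its level was 398 TPM in the control, 1831 TPM after RARγi-1 and 3778 TPM after RARγi-2. In Panc-1 cells, it was 773 TPM in the control, 4003 TPM after RARγi-1 and 5809 TPM after RARγi-2. Every treated library was above both controls. On the log2 scale the changes were 2.20 and 3.24 in PK-1 cells and 2.37 and 2.91 in Panc-1 cells, for RARγi-1 and RARγi-2 in this order, which is kept throughout. Ranked by level among all entries, SQSTM1 moved from place 344 to places 66 and 23 in PK-1 cells and from place 176 to places 18 and 10 in Panc-1 cells. In bulk RNA, a larger share of cells with a high level and more RNA in each cell cannot be told apart.

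The nearest measure of variation without replicates was taken from the difference between both treated libraries of a line over all tested entries, and it contains real differences between the inhibitors. It gave a spread of a log2 fold change, as a robust standard deviation, of 0.389 in PK-1 cells and 0.299 in Panc-1 cells. Tested entries at the floor in both treated libraries of a line counted as no difference, which tends to make this spread smaller. The changes of SQSTM1 exceeded it in each comparison. Only 1.04%, 0.612%, 0.645% and 0.532% of the 12412 tested entries, those that reached 5 TPM in 1 or more libraries, had a log2 fold change as high or higher in PK-1 with RARγi-1, PK-1 with RARγi-2, Panc-1 with RARγi-1 and Panc-1 with RARγi-2.

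NBR1, on chromosome 17 (43170409 to 43211688, plus strand), encodes a receptor that shares with p62 the domains for ubiquitin and ATG8 proteins. Its level in PK-1 cells was 40.6 TPM in the control, 81.4 TPM after RARγi-1 and 74.9 TPM after RARγi-2. In Panc-1 cells it was 16.2, 25.6 and 24.4 TPM in the control, RARγi-1 and RARγi-2 libraries. All treated libraries of a line were above its control, with log2 fold changes of 0.99 and 0.87 in PK-1 cells and 0.63 and 0.56 in Panc-1 cells, larger than the spread but under 2-fold. The call of the highest of these rests on the pseudocount, since the ratio of the TPM values themselves was 2.0045 (log2 1.003) and a pseudocount of 0.1 TPM gave 1.001, both just past 2-fold. The level of SQSTM1 was 9.80 times that of NBR1 in the PK-1 control and 47.8 times in the Panc-1 control. This ratio was 22.5 and 50.4 in treated PK-1 cells and 156 and 238 in treated Panc-1 cells.

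Among the ATG8 family genes, MAP1LC3B and GABARAPL1 were past 2-fold in all 4 comparisons, and the genes with the highest control levels, GABARAP and GABARAPL2, were not. MAP1LC3B, on chromosome 16 (87392336 to 87404774, plus strand), encodes LC3B, the family member most used as a marker of autophagosomes. It was at 50.3 TPM in the PK-1 control, 371 TPM after RARγi-1 and 872 TPM after RARγi-2. The Panc-1 libraries held 94.6 TPM in the control, 527 TPM after RARγi-1 and 857 TPM after RARγi-2. Both lines thus reached a similar level with RARγi-2 from controls that differed. The changes were 2.86 and 4.09 in PK-1 cells and 2.47 and 3.17 in Panc-1 cells on the log2 scale, and at most 0.572% of the tested entries lay as high in any comparison.

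GABARAPL1, on chromosome 12 (10212877 to 10223128, plus strand), encodes a protein of the GABARAP subfamily. Its level was 25.6 TPM in the PK-1 control and 136 and 267 TPM after RARγi-1 and RARγi-2. In Panc-1 cells the control held 10.9 TPM and the treated libraries 39.9 and 104 TPM. No treated library was as low as either control. Its log2 fold changes reached 2.36 and 3.33 in PK-1 cells and 1.78 and 3.14 in Panc-1 cells.

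GABARAP, on chromosome 17 (7240008 to 7242449, minus strand), had the highest level of the family in both controls. Its libraries held 246, 363 and 403 TPM in PK-1 cells and 401, 526 and 586 TPM in Panc-1 cells, in the order control, RARγi-1, RARγi-2. The log2 fold changes of 0.56 and 0.71 in PK-1 cells and 0.39 and 0.55 in Panc-1 cells were larger than the spread but under 2-fold.

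GABARAPL2, on chromosome 16 (75566379 to 75577881, plus strand), encodes GATE-16. It was the only member whose direction differed between the lines in all libraries. In PK-1 cells the control held 124 TPM and the treated libraries 184 and 188 TPM, with log2 fold changes of 0.56 and 0.59. In Panc-1 cells the control held 99.95 TPM and the treated libraries 81.1 and 81.7 TPM. The Panc-1 log2 fold changes of -0.30 and -0.29 lay only just within the spread of 0.299.

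MAP1LC3A, on chromosome 20 (34546844 to 34560345), encodes LC3A. It was at the floor in the PK-1 control and with RARγi-1 and at 1.02 TPM with RARγi-2, so no fold change can be read in that line. In Panc-1 cells it was at 23.8 TPM in the control, 45.4 TPM after RARγi-1 and 49.9 TPM after RARγi-2. The log2 fold changes in Panc-1 cells were 0.90 and 1.04. MAP1LC3C, the remaining LC3 gene, did not exceed 1.28 TPM in any library.

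The summed level of the 5 ATG8 genes was 447 TPM in the PK-1 control, 1055 TPM after RARγi-1 and 1731 TPM after RARγi-2. In Panc-1 cells the sum was 630.1, 1220 and 1679 TPM in the control, RARγi-1 and RARγi-2 libraries. MAP1LC3B supplied 11.3% of the sum in the PK-1 control, 35.2% with RARγi-1 and 50.4% with RARγi-2. The same share was 15.0%, 43.2% and 51.1% in Panc-1 cells. GABARAP went the other way as a share, from 55.0% to 34.4% and 23.3% in PK-1 cells and from 63.6% to 43.1% and 34.9% in Panc-1 cells, although its own level was higher in every treated library. Without MAP1LC3B and GABARAPL1, the sum of the remaining 3 genes was 1.478 and 1.60 times the control in PK-1 cells and 1.24 and 1.37 times in Panc-1 cells, compared with 2.36, 3.87, 1.94 and 2.66 times for all 5.

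**Figure D2:**
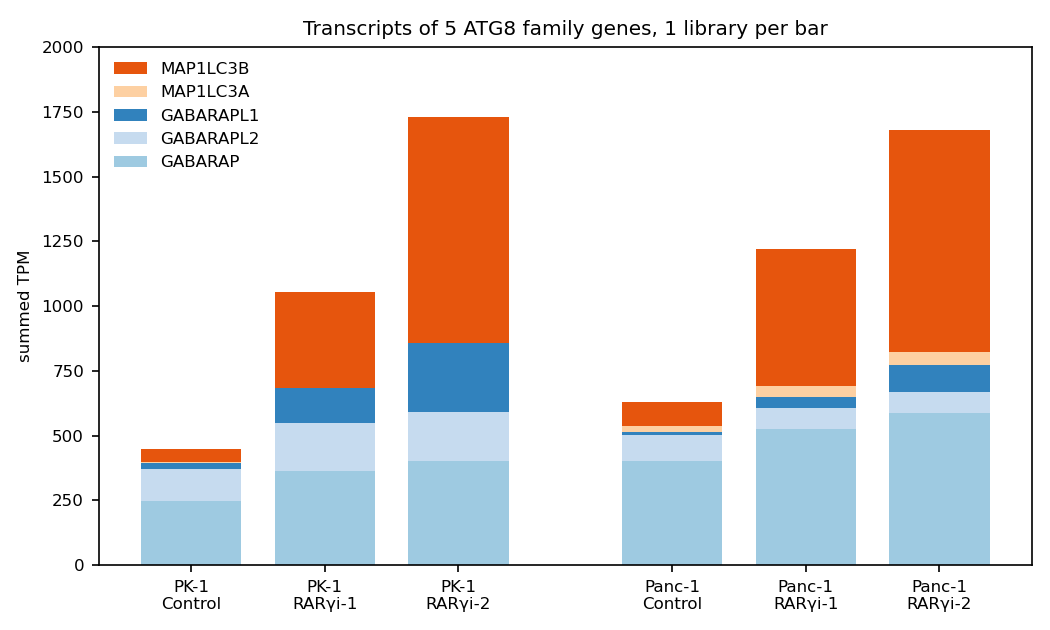
Summed TPM (linear axis from 0) of 5 ATG8 family genes in each library, 1 bar per library, divided by gene. MAP1LC3B, the top segment, takes 11.3% and 15.0% of the control bars and between 35.2% and 51.1% of the treated bars.

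MAP1LC3B has a near copy on chromosome 12, MAP1LC3B2 (116559381 to 116576606, plus strand), and reads of one can be counted for the other. In the GENCODE 29 transcripts both coding sequences are 378 bases long and differ at 2 positions, C30G and A338G (the base of MAP1LC3B first, positions counted from 1 at the first base of the start codon). The stretches around these positions are shown because they are where a read can tell the 2 coding sequences apart, with the differing base in capitals.
MAP1LC3B, coding bases 10 to 50: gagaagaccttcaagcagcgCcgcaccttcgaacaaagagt
MAP1LC3B2, coding bases 10 to 50: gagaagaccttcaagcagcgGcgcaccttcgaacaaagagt
MAP1LC3B, coding bases 318 to 358: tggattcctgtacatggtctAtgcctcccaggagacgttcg
MAP1LC3B2, coding bases 318 to 358: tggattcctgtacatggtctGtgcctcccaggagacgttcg

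Of the 50-base sequences in transcripts of MAP1LC3B2, 15.1% also occur in MAP1LC3B, where they make up 4.82% of such sequences. MAP1LC3B2 was at 7.26, 52.1 and 101 TPM in PK-1 cells and at 10.3, 53.2 and 78.8 TPM in Panc-1 cells, with log2 fold changes of 2.68, 3.62, 2.26 and 2.82 in the 4 comparisons. Its level was between 9.19% and 14.4% of that of MAP1LC3B in every library. How reads that match both were assigned is not given in the sources used here, so the split between these genes is uncertain. The copies MAP1LC3BP1 and GABARAPL3 were at the floor in all 6 libraries.

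WIPI1 was past 2-fold in all 4 comparisons, ULK1 in PK-1 cells and BECN1 in none. WIPI1, on chromosome 17 (68421281 to 68457496, minus strand), encodes a protein that recognises the lipid mark on the growing membrane. It was at 15.2 TPM in the PK-1 control, 118 TPM after RARγi-1 and 248 TPM after RARγi-2. In Panc-1 cells it was at 9.11 TPM in the control, 55.2 TPM after RARγi-1 and 105 TPM after RARγi-2. The treated libraries of both lines lay above both controls. Its log2 fold changes stood at 2.88 and 3.95 in PK-1 cells and 2.48 and 3.38 in Panc-1 cells.

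ULK1, on chromosome 12 (131894622 to 131923150, plus strand), encodes the kinase that is switched on when nutrients are short. In PK-1 cells it was at 10.9 TPM in the control, 70.0 TPM after RARγi-1 and 83.5 TPM after RARγi-2, and its log2 fold changes were 2.57 and 2.83. In Panc-1 cells the control already held 35.7 TPM, and the treated libraries held 63.3 and 58.9 TPM, with log2 fold changes of 0.81 and 0.71. The treated levels of the lines were thus closer in ratio than the control levels, and all 4 changes exceeded the spread.

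BECN1, on chromosome 17 (42810132 to 42824282, minus strand), encodes Beclin 1, the regulatory subunit of the lipid kinase complex. Its levels were 76.4, 90.9 and 113 TPM in PK-1 cells and 29.5, 34.8 and 38.3 TPM in Panc-1 cells. Both RARγi-1 changes, 0.25 and 0.23 on the log2 scale, were within the spread, and the RARγi-2 changes of 0.56 and 0.36 were larger than it. Exons of BECN1 overlap PSME3 on the opposite strand, those of SQSTM1 overlap MGAT4B and MRNIP, and those of MAP1LC3B overlap FBXO31. These neighbours reached at most 192, 145, 22.8 and 17.6 TPM. The library kit keeps strand, but whether counting used it is not given in the sources used here.

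The members were chosen with earlier results of these data known, so the counts below describe the list and test nothing. Read as a list, 5 of the 10 members were past 2-fold higher in PK-1 cells with RARγi-1, where 9.91% of all tested entries were higher and 5.2% lower by that rule. With RARγi-2, 5 members were past 2-fold higher in PK-1 cells, beside 12.9% of entries higher and 13.5% lower. In Panc-1 cells, 4 members were past 2-fold higher with RARγi-1, beside 7.86% of entries higher and 6.51% lower. With RARγi-2, 5 members were past 2-fold higher in Panc-1 cells, beside 9.02% of entries higher and 12% lower. No member was past 2-fold lower in any comparison. After rescaling by the median ratio to the control, the split of all entries in PK-1 cells with RARγi-1 was 7.33% higher and 6.61% lower, and 5 members were past 2-fold higher. Past 2-fold higher in all 4 comparisons were 4 members and 2.71% of entries, and past 2-fold lower in all 4 were 0 members and 2.19% of entries. The median log2 fold changes of the members were 1.59, 1.85, 0.86 and 0.87, whereas those of all tested entries were 0.13, 0, 0.05 and 0. Without MAP1LC3A, which cannot be read in PK-1 cells, the medians there were 2.20 and 2.83. Tested entries at the floor in both libraries of a comparison stayed in the shares and medians of all entries, as changes of 0. At 1.5-fold, 6, 8, 7 and 6 members were higher in the 4 comparisons, beside 23%, 23.7%, 19.4% and 18.9% of all tested entries. All 10 members passed the minimum of 5 TPM in at least 1 library, MAP1LC3A through its Panc-1 libraries.

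**Figure D3:**
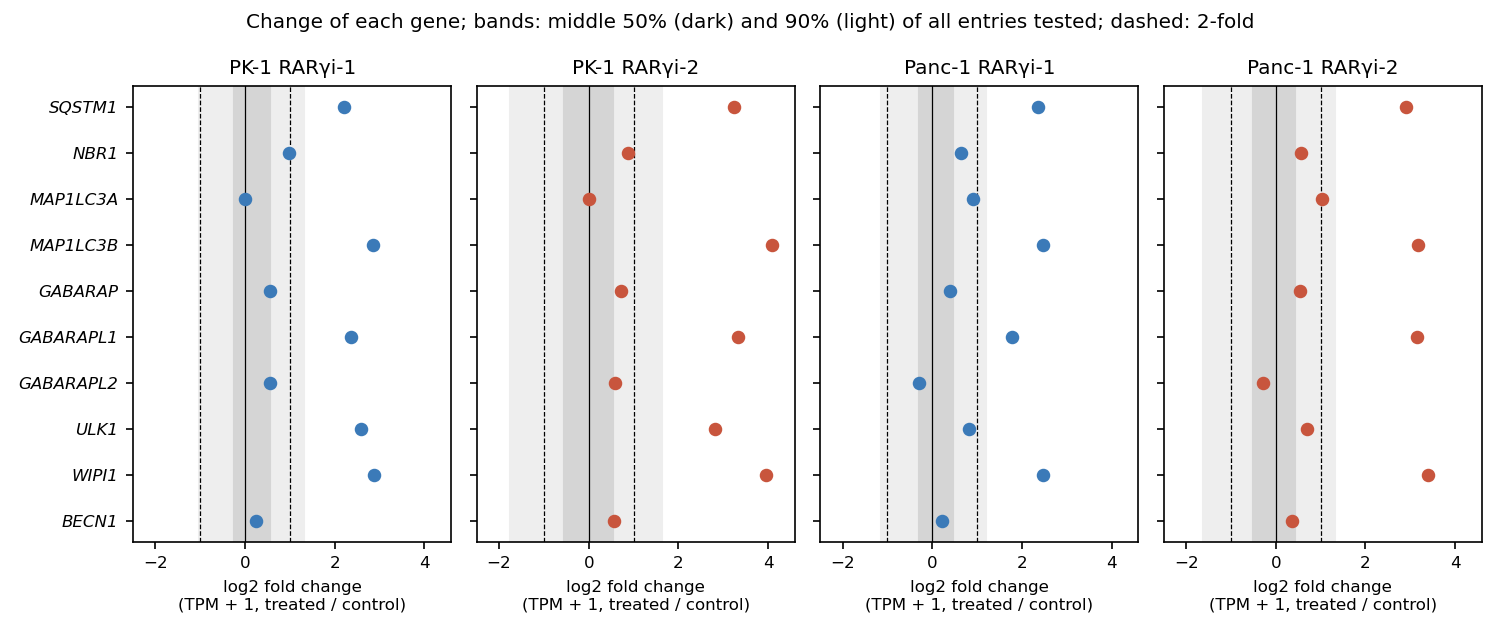
Log2 fold change of (TPM + 1) of each gene in the 4 comparisons, with dark and light bands for the middle 50% and 90% of all 12412 tested entries and dashed lines at 2-fold. SQSTM1, MAP1LC3B, GABARAPL1 and WIPI1 lie to the right of both bands in every panel, and ULK1 does so in the PK-1 panels.

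The 10 genes were then set among 68 genes of the autophagy machinery, grouped by step, of which 64 passed the minimum (ATG2B, MAP1LC3C, RETREG1 and EPG5 did not). This wider list, too, was chosen with earlier results of these data known. Past 2-fold higher in all 4 comparisons were 10 of the 64 genes, beside 2.71% of all tested entries. They were the 4 members and 6 others, WDR45, TMEM41B, MAP1LC3B2, CCPG1, CALCOCO1 and PLEKHM1. The split of reads between MAP1LC3B2 and MAP1LC3B is uncertain, so these 2 may not be separate changes. After rescaling 8 of the 10 genes remained, without TMEM41B and CALCOCO1, each at 0.94 in its lowest comparison. Past 1.5-fold in all 4 comparisons were 18 of the 64 genes, beside 8.18% of all tested entries. In at least 3 comparisons 13 genes were past 2-fold higher, beside 5.08% of all tested entries. None of the 64 genes was past 2-fold lower in any comparison, beside 5.2%, 13.5%, 6.51% and 12% of all tested entries in the 4 comparisons. Among the 54 tested genes outside the 10, the counts past 2-fold higher were 13, 18, 7 and 13 in the 4 comparisons. The shares of all tested entries past 2-fold higher were 9.91%, 12.9%, 7.86% and 9.02%. The medians of the 54 genes were 0.49, 0.56, 0.35 and 0.32. Of the 54 genes, 34 were higher in all 4 comparisons by any amount, beside 30% of all tested entries. The comparisons within a line share a control.

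In the group of genes that shape the early membrane, 3 of 8 tested genes (against 2.71% of all tested entries) were past 2-fold in all 4 comparisons. Besides WIPI1, these were its relative WDR45 (WIPI4), with log2 fold changes of 1.52, 1.95, 1.71 and 2.09, and TMEM41B, which moves lipids between membrane leaflets, with 1.08, 1.34, 1.65 and 1.83. WDR45 was at 22.7, 67.0 and 90.6 TPM in PK-1 cells and at 34.5, 115 and 150.5 TPM in Panc-1 cells. In the initiation complex, 1, 4, 0 and 2 of 5 genes were past 2-fold in the 4 comparisons, none of them in 3 or more. The shares of all tested entries past 2-fold higher were 9.91%, 12.9%, 7.86% and 9.02%. ULK2, 1 of the 5 genes, was at the floor in all PK-1 libraries, so no change of it can be read there. ULK1 had the greatest absolute mean change. With RARγi-2 its partners ATG13, RB1CC1 and ATG101 had 1.57, 1.17 and 1.10 in PK-1 cells and 1.66, 0.78 and 1.23 in Panc-1 cells. With RARγi-1 these partners stayed under 2-fold, at 0.72, 0.90 and 0.62 in PK-1 cells and 0.95, 0.57 and 0.83 in Panc-1 cells.

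In the lipid kinase complex, NRBF2, a subunit that promotes its activity, was past 2-fold in 3 of 4 comparisons, with log2 fold changes of 1.17, 1.78, 0.97 and 1.08. It was the only one of 8 genes past 2-fold in at least 3 comparisons, beside 5.08% of all tested entries. RUBCN, another gene of this group, was past 2-fold in Panc-1 cells only, with log2 fold changes of 0.66, 0.77, 1.72 and 1.66. PIK3R4 and AMBRA1 were lower in all 4 comparisons, none of them past 2-fold.

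The next group held the enzymes that attach ATG8 proteins to the membrane and the ATG4 proteases. None of its 10 genes passed 2-fold in more than 1 comparison. ATG4A, a protease that trims ATG8 proteins, had the greatest absolute mean change, with log2 fold changes of 0.78, 1.43, 0.36 and 0.70. It was at 14.8, 26.2 and 41.6 TPM in PK-1 cells and at 13.3, 17.3 and 22.3 TPM in Panc-1 cells. The group medians were 0.34, 0.22, 0.14 and 0.02.

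Among the 9 receptors for ubiquitinated and other selected cargo, SQSTM1 was past 2-fold in all 4 comparisons and OPTN and TAX1BP1 in 3. Of all tested entries, 2.71% were past 2-fold higher in all 4 comparisons and 5.08% in at least 3. OPTN, a receptor for mitochondria and bacteria, had log2 fold changes of 1.66, 1.97, 0.85 and 1.004. TAX1BP1, which binds ubiquitinated aggregates, had 1.03, 1.05, 0.97 and 1.21, so that its Panc-1 RARγi-1 value was just under 2-fold. NCOA4, the ferritin receptor, was lower in all 4 comparisons, by no more than 0.46 on the log2 scale.

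Of the 6 tested receptors for the endoplasmic reticulum, CCPG1 and CALCOCO1 were past 2-fold in all 4 comparisons, beside 2.71% of all tested entries. CCPG1 was at 9.83, 46.5 and 78.6 TPM in PK-1 cells and at 6.25, 29.5 and 33.1 TPM in Panc-1 cells, with log2 fold changes of 2.13, 2.88, 2.08 and 2.23. CALCOCO1 was at 5.94, 31.9 and 53.6 TPM in PK-1 cells and at 13.4, 28.2 and 38.9 TPM in Panc-1 cells, with log2 fold changes of 2.24, 2.98, 1.02 and 1.47. Both were higher in every treated library than in the control of either line. TEX264, another receptor of this group, was lower in all 4 comparisons, with log2 fold changes between -0.49 and -0.34.

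The mitophagy receptors held no gene past 2-fold in 3 comparisons, and BCL2L13, an outer membrane receptor, had the greatest absolute mean change, with log2 fold changes of 0.41, 0.49, 0.77 and 0.61. BNIP3 was at the floor in the PK-1 libraries, where its changes count as 0 in that mean, and had 0.74 and 0.96 in Panc-1 cells. In the fusion group, PLEKHM1, an adaptor between autophagosomes and lysosomes, was past 2-fold throughout, beside 2.71% of all tested entries. Its log2 fold changes were 1.43, 1.94, 1.74 and 1.57. The other 5 tested genes of this group passed 2-fold in at most 1 comparison, and VAMP8 was lower in all 4.

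**Figure D4:**
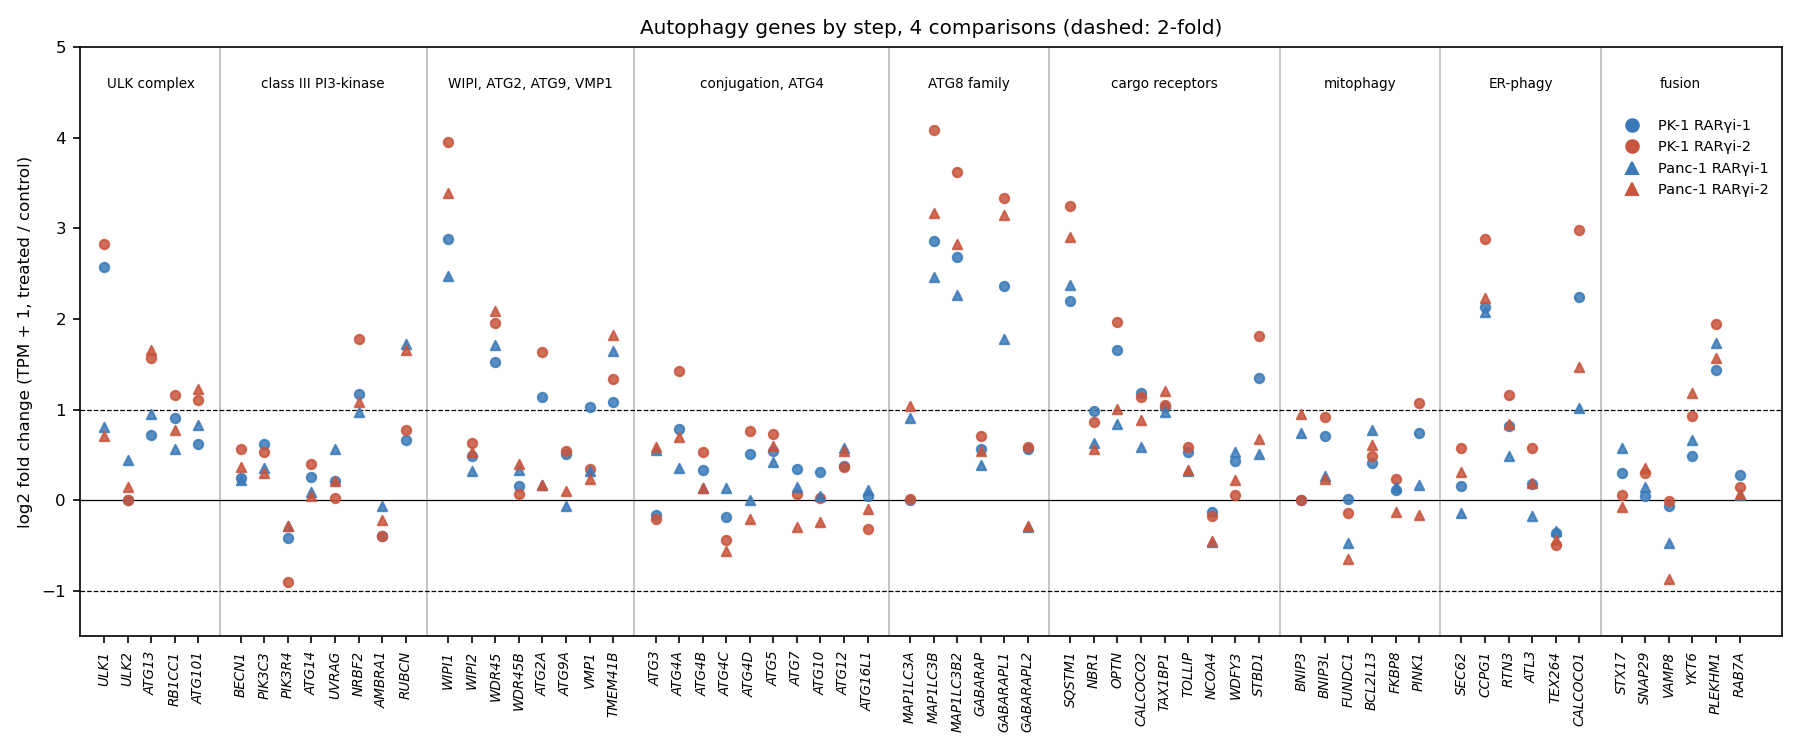
Log2 fold change of (TPM + 1) of the 64 tested autophagy genes, grouped by step, with circles for PK-1, triangles for Panc-1, blue for RARγi-1 and red for RARγi-2, and dashed lines at 2-fold. All 4 points lie above the upper dashed line for 10 genes, and no point lies below the lower line.

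Transcription factors known to drive autophagy genes were examined by their own transcripts. DDIT3 (CHOP), a factor of the stress response, was at 48.9, 377 and 904 TPM in PK-1 cells and at 80.8, 575 and 1070 TPM in Panc-1 cells. Its log2 fold changes of 2.92, 4.18, 2.82 and 3.71 made it the only one of 8 factors past 2-fold in all 4 comparisons, beside 2.71% of all tested entries. ATF4, which is controlled largely at translation, had 1.27, 1.56, 0.99 and 1.40. TFE3, a relative of TFEB, had 1.14, 1.06, 0.99 and 1.09.

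FOXO3 lay close to 2-fold, with log2 fold changes of 0.92, 1.06, 0.90 and 1.03, and NFE2L2 (NRF2) below it, with 0.37, 0.30, 0.50 and 0.82. FOXO1 was past 2-fold in PK-1 cells with RARγi-2 only, at 1.22, with 0.37 for RARγi-1 and at most 1.60 TPM in Panc-1 cells. TFEB did not exceed 5.13 TPM in any library and MITF did not exceed 1.29 TPM in Panc-1 cells. The activity of TFEB, TFE3 and NRF2 is set largely by their location and stability, which RNA does not show.

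The entries whose 4 log2 fold changes lay nearest to those of SQSTM1 and MAP1LC3B were sought among 10628 entries that reached 10 TPM in 1 or more libraries, by Euclidean distance over the 4 comparisons, which share 2 controls. For SQSTM1 they were SLC6A9, a glycine transporter, at a distance of 0.33, FICD, an enzyme of the endoplasmic reticulum, at 0.36 and GFPT1, the first enzyme of hexosamine synthesis, at 0.49. SLC6A9 had log2 fold changes of 2.42, 3.46, 2.27 and 2.87. For MAP1LC3B they were WIPI1 at 0.26, MAP1LC3B2 at 0.64 and DDIT3 at 0.66. The values of MAP1LC3B and MAP1LC3B2 may not be independent, because the split of reads between them is uncertain. FICD was at 3.20 TPM in the PK-1 control and 3.84 TPM in the Panc-1 control, and SLC6A9 at 8.35 and 5.25 TPM. Both reached 10 TPM only in treated libraries, so their distances to SQSTM1 depend on the pseudocount. The order of the nearest entries was not recomputed without it.

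Across the 6 libraries, between 13149 and 13652 entries lay above the floor. Depth is unknown, because TPM values do not keep it. In the libraries of both lines KRT8, KRT18 and KRT19 were detected, whereas CDH1 was at the floor in Panc-1 cells and KRT7 did not exceed 4.19 TPM there. The summed level of 6 epithelial markers moved with treatment, from 22498 TPM in the PK-1 control to 13507 and 14127 TPM, and from 8418 TPM in the Panc-1 control to 1783 and 1484 TPM. The abundant keratins carry this sum. EPCAM had log2 fold changes of -0.07, -0.22, 0.51 and -0.50 in the 4 comparisons, and CDH1 was higher in treated PK-1 cells, at 170.1, 270.2 and 385 TPM. The part of these markers in the results was not tested. Of 5 fibroblast markers only COL1A1 was above the floor, at 3.21, 11.5 and 13.4 TPM in PK-1 cells and at 52.4, 4.65 and 2.10 TPM in Panc-1 cells. All 4 endothelial markers were at the floor, and of 5 immune markers CD68, which many tumour cells express in lysosomes, was at 19.8, 94.995 and 62.6 TPM in PK-1 cells and at 244, 276 and 238 TPM in Panc-1 cells, while PTPRC, CD3E and MS4A1 were at the floor throughout.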

How the data were processed

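Total RNA of PK-1 and Panc-1 cells was sequenced with a stranded mRNA kit. The authors deposited, for each of the 6 libraries, 1 table of log2 values of TPM, in which the values show a floor of 1 TPM. Per the labels, the build was hg38. The aligner, the counting and the annotation are not given in the sources used here, and so neither are depth and multi-mapped reads.

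After conversion to linear TPM, a fold change was the ratio of (TPM + 1) in a treated library to that in the control of its line, expressed as log2, with Python 3.11.15, numpy 2.4.6 and pandas 2.3.3. Counts past 2-fold cover entries that reached 5 TPM in 1 or more libraries. With 1 library per condition, no test was run. The spread was estimated from how both treated libraries of a line differ (their median absolute deviation times 1.4826). Variation of a shared control does not enter it. A gene was the entry of its symbol, with the highest mean where a symbol was repeated (no member was). The scripts were tested on simulated data. Positions and start sites are from RefSeq (GRCh38.p14), and transcripts and exons from GENCODE 29.

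The members, the gene lists and the motifs were chosen with earlier results of these data known. Named were the members, their near copies, 8 transcription factors, the 3 entries nearest to SQSTM1 and MAP1LC3B and, of each group, genes past 2-fold in at least 3 of 4 comparisons, otherwise the gene of greatest absolute mean change. PIK3R4, AMBRA1, RUBCN, NCOA4, TEX264, VAMP8, ULK2, ATG13, RB1CC1, ATG101, BNIP3 and overlapping genes were named after their values were seen. Alternatives were pseudocounts of 0, 0.1 and 5 TPM, rescaling by the median ratio to the control, no minimum, thresholds of 1.5-fold and 3-fold and the sum of repeated symbols.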

Additional observations from a re-analysis of the deposited data

Results flagged for a closer look

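The 64 tested autophagy genes and the 8 transcription factors were screened for opposite directions in the lines. For 5 of them, both treated libraries of one line lay above the control and both of the other line lay below it. The difference was not tested. The share of all tested entries with this pattern was not determined, so the count has no reference value. The mean log2 fold change in PK-1 cells minus that in Panc-1 cells was 0.869 for GABARAPL2, whose 4 values are given above. It was 1.24 for TFEB, with log2 fold changes of 0.63 and 0.24 in PK-1 cells and -0.54 and -1.06 in Panc-1 cells at levels of at most 5.13 TPM. It was 0.743 for the protease gene ATG4D, with 0.52 and 0.76 in PK-1 cells and, in Panc-1 cells, a value that rounds to 0 with RARγi-1 and -0.21 with RARγi-2. It was -0.758 for ATG3, the enzyme that transfers ATG8 proteins to lipid, with -0.17 and -0.21 in PK-1 cells and 0.55 and 0.59 in Panc-1 cells. It was -0.631 for MITF, with -0.35 and -0.65 in PK-1 cells and 0.15 and 0.11 in Panc-1 cells, where it lay near the floor. TFEB passed the minimum of 5 TPM only in PK-1 cells with RARγi-1, a library in which it was higher, so the filter favoured its pattern.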

How the results depend on the processing

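No member past 2-fold changed direction under any alternative. The spread of 1 library was 0.275 in PK-1 cells and 0.211 in Panc-1 cells, less than that of a log2 fold change. Of 200 log2 fold changes recomputed (40 values under 5 alternatives), 193 moved by less than this spread of 1 library. The other 7 moved with a pseudocount of 5 TPM, which shrinks changes of low genes by construction: ULK1 became 2.24 and 2.48 in PK-1 cells with RARγi-1 and RARγi-2, WIPI1 3.65 in PK-1 cells with RARγi-2 and 2.09 and 2.96 in Panc-1 cells, and GABARAPL1 1.497 and 2.78 in Panc-1 cells. Some calls near the threshold were gained or lost: in PK-1 cells with RARγi-1, 6 members in place of 5 were past 2-fold without a pseudocount or with 0.1 TPM (NBR1), in Panc-1 cells with RARγi-2, 4 in place of 5 with 5 TPM (MAP1LC3A at 0.93) or at 3-fold, and 8 in place of 10 genes of the wider list in all 4 comparisons after rescaling. At 1.5-fold, 8 members were higher in PK-1 cells with RARγi-2 (23.7% of all entries), 7 in Panc-1 cells with RARγi-1 (19.4%) and 6 in each of the other comparisons (23% and 18.9%), and 18 genes of the wider list in all 4 (8.18%). Rescaling by the median ratio removed a log2 shift of 0.14 from PK-1 cells with RARγi-1 and of no more than 0.08 elsewhere. Taking the sum of repeated symbols changed nothing, since no member is repeated, so its values among the 200 could not move. No paired analysis was possible because each group is 1 library with no replicate number. No replicate could be left out, and without counts the depth sets no stated limit on any value.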
